A study of Homo sapiens with 10 samples.

Results

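This section describes U937 cells after 6 h of CD32 cross-linking, set against control U937 cells with no cross-linking listed. U937 is an established human monocytic line, and per the labels all cultures, the controls included, had first been differentiated with interferon gamma. The 2 arrays titled for CD32 at 6 h, one of them a duplicate, and the 2 control arrays were chosen by title from the 10 arrays of the series. The other groups used were CD32 2 h and CD64 6 h, with 2 arrays each; the CD64 2 h arrays entered only the shared estimate of the spread. No time was given for the control, and 1 CD32 2 h array has a source name that differs from its title and description, which were followed. Nothing in the labels tells whether a duplicate was a culture of its own, so p-values here measure the spread between arrays, which may be technical. The model is 1 cell line, so it shows neither primary monocytes nor differences between donors.

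Fc gamma receptors bind the constant part of IgG and let phagocytes sense antibody-coated targets. CD32 is the low-affinity receptor family: FCGR2A carries an activating motif in its own tail, and FCGR2B carries an inhibitory one. Clustering an activating receptor brings in Src family kinases and SYK, then phosphoinositide 3-kinase, phospholipase C gamma and MAP kinases, and in monocytes it is known for phagocytosis, the oxidative burst and the release of cytokines.

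The array measured 8793 probe sets, of which 8746 were not control probe sets. Signal intensity was on one scale across arrays (trimmed means of 500.46 to 500.63). A probe set was tested when it lay above a floor of 37.5 on at least 2 of the 10 arrays, which kept 7708 probe sets and 6814 genes. The 2 CD32 6 h arrays correlated at 0.9737 and the 2 control arrays at 0.9676, over probe sets, which share their arrays. Values across groups were partly as high. The CD32 6 h arrays correlated with the control arrays at 0.9344 to 0.9543 and with the CD32 2 h arrays at 0.964 to 0.9731. Control replicate 2 correlated with CD64 2 h replicate 2 at 0.9657. Some measures of the arrays moved with the group. The 9 probe sets for bacterial transcripts had a mean log2 signal of 12.63 and 12.59 on the CD32 6 h arrays, against 10.69 and 11.08 on the control arrays. Actin signal at the 3′ end over that at the 5′ end, a measure of RNA integrity and labelling, was 2.01 and 1.97 after CD32 6 h and 1.32 and 1.29 in control. Their part in the results was not tested.

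After 6 h of CD32 cross-linking, 1539 of 7708 probe sets had changed against control, or 20% (limma, Benjamini-Hochberg adjusted p under 0.05). Of these 742 were higher, 9.63% of all tested, and 797 lower, 10.3%. By gene, 660 of 6814 rose (9.69%) and 683 fell (10%), and these shares are the background for each list below. The median log2 difference over all genes was -0.08. Changes past 2-fold were seen in 325 probe sets upward and 298 downward, past 4-fold in 64 and 29, and past 8-fold in 9 and 2. With each array centred on its median, the median over probe sets moved to 0.04 and the upward share of calls to 62.6%, against 48.2% as deposited. The fit that leaves out CD32 6 h replicate 1 made 942 calls in place of 1539, and one of these 4 arrays alone 385.

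**Figure D1:**
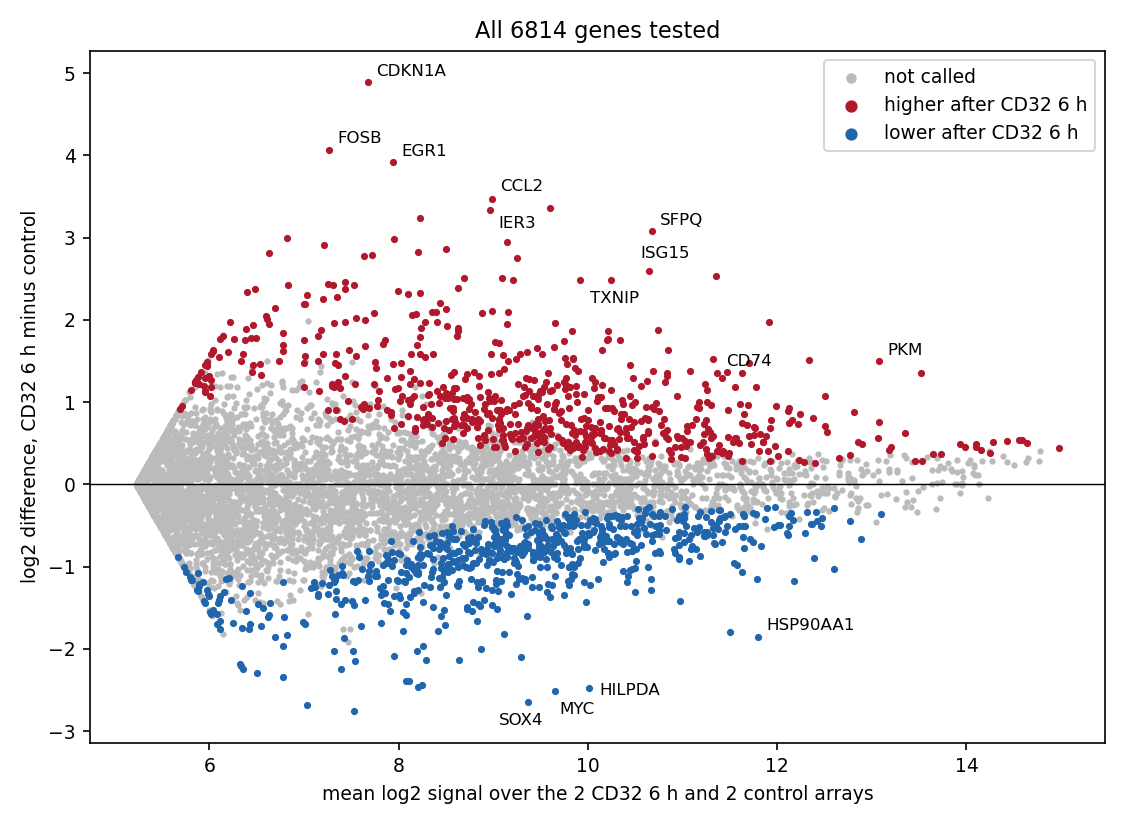
Each point is 1 of 6814 genes: the horizontal axis gives its mean log2 signal over the CD32 6 h and control arrays, the vertical axis the log2 difference (CD32 6 h minus control). Red genes were called higher (660) and blue genes lower (683); CDKN1A, FOSB and EGR1 stand at the top and SOX4, MYC and HILPDA near the bottom, and the wedge at the left is formed by values set to the floor.

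CDKN1A had the highest fitted rise at the floor used; it encodes p21, an inhibitor of cyclin-dependent kinases. CDKN1A gave a signal of 1089.6 and 1132 on the CD32 6 h arrays, against 37.0 and 16.5 on the control arrays. Both control arrays lay under the floor and far below both CD32 6 h arrays, so the difference is a bound: at least 29.6-fold higher (log2 4.89 ± 0.27 SE, adjusted p = 1.47e-06). The order of CDKN1A and FOSB, described below, depends on the floor: at a floor of 10.7 their log2 differences were 5.49 and 5.63. On these bulk samples, more cells using a gene and more RNA per cell cannot be told apart. Other large rises were seen in a phosphatase, a protease and an RNA-binding protein. PTPRE, a receptor-type tyrosine phosphatase, gave 2354 and 2606 after CD32 6 h and 264 and 221 in control, 10.3-fold higher (3.36 ± 0.13). MMP1, an interstitial collagenase, gave 888 and 956 against 119.6 and 80 in control, 9.42-fold higher (3.24 ± 0.28). SFPQ, a splicing factor of nuclear paraspeckles, gave 4595 and 4914 against 593 and 536, 8.43-fold higher (3.08 ± 0.09, adjusted p = 1.48e-08). In each of these genes the lower CD32 6 h array lay several-fold above the higher control array. KLF10, a Krüppel-like transcription factor, reached 1497 and 1659.5 against 256 and 164 in control (2.95 ± 0.20). TNFAIP6, a hyaluronan-binding protein, gave 466 and 355 against 78.1 and 6.5 in control. Its lower control array lies under the floor, so its 7.51-fold rise depends on the floor.

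Among the falls, ATP5F1C, the gamma subunit of mitochondrial ATP synthase, gave 98.9 and 50.6 on the CD32 6 h arrays and 475 and 485 on the control arrays, 6.78-fold lower (-2.76 ± 0.41, adjusted p = 7.62e-04). SOX4, a transcription factor of progenitor cells, gave 232 and 300.3 against 1799 and 1516 in control (-2.65 ± 0.18). HILPDA, a lipid droplet protein induced by hypoxia, gave 493 and 388 against 2619 and 2282 (-2.48 ± 0.16). The groups were well apart in all of these. IGLL1, a surrogate light chain of the precursor B cell receptor, gave 107 and 149 against 633 and 756 in control (-2.46 ± 0.29). TPR, a nuclear pore protein, gave 138 and 124 against 833 and 602 (-2.44 ± 0.29). SRRM2, a scaffold of nuclear speckles, gave 145 and 100.5 against 590.2 and 679.5 (-2.39 ± 0.25). UBQLN2, a shuttle to the proteasome, ZNF12, a zinc finger protein, the growth factor receptor FGFR1 and the basic leucine zipper protein CREBZF also fell, by 5.23-fold, 5.07-fold, 4.9-fold and 4.75-fold. MARCHF6, a ubiquitin ligase of the endoplasmic reticulum, gave 18.7 and 71.3 against 291 and 374 in control; 1 CD32 6 h array lay under the floor, on which its 6.39-fold fall depends. Of the 12 called probe sets with the largest falls 3 had no single gene symbol and are not named. The largest fall among these 12 probe sets was 11.3-fold.

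**Figure D2:**
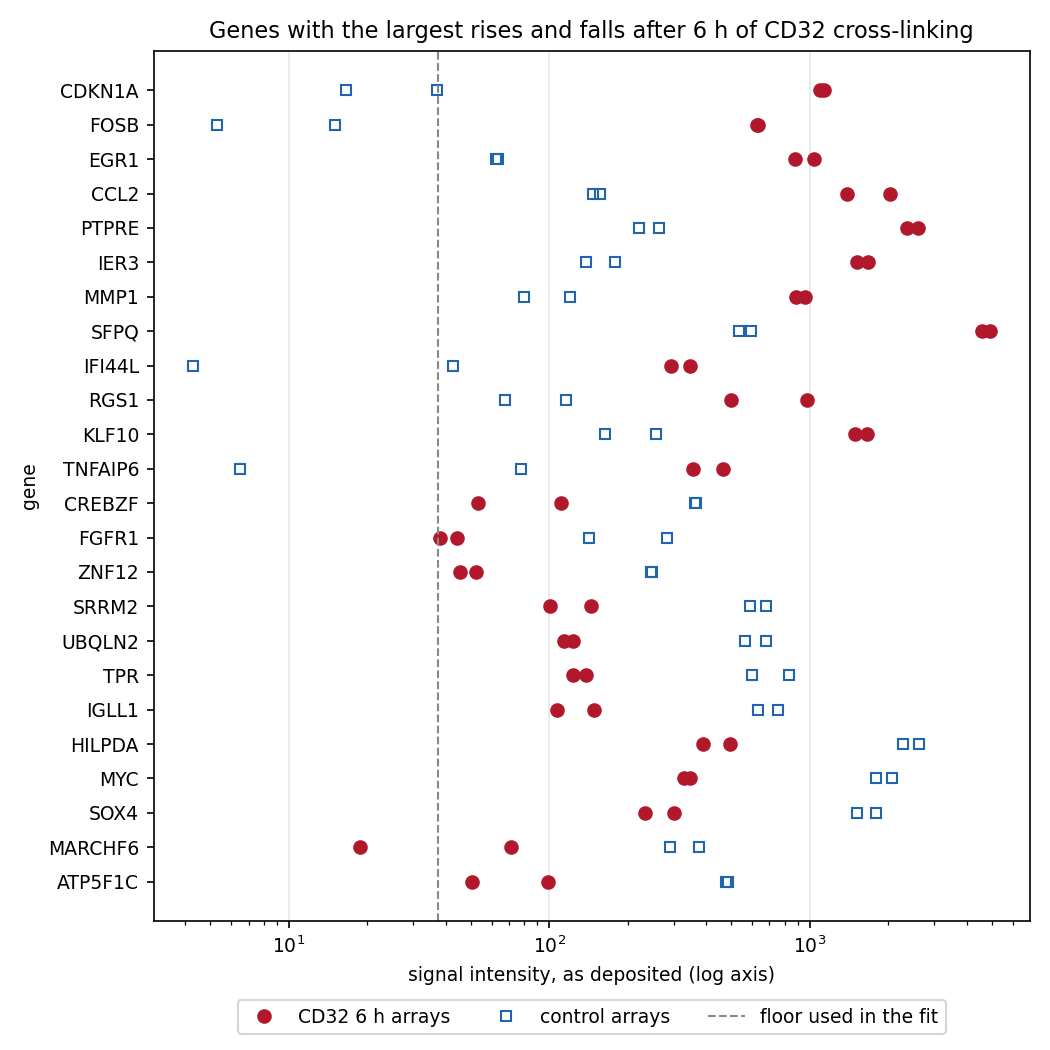
Signal intensity (log axis) of the 12 genes with the largest rises and the 12 with the largest falls, with 1 filled red circle per CD32 6 h array and 1 open blue square per control array; the dashed line is the floor of 37.5. The groups do not overlap in any of the 24 genes, which was a condition for naming them and holds for 21.9% of all probe sets with CD32 6 h higher and 28.9% with it lower, and for CDKN1A, FOSB, IFI44L and TNFAIP6 at least 1 control array lies under the floor.

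The cross-linked receptor itself was read through FCGR2A and FCGR2B. FCGR2A gave 737 and 663 after CD32 6 h and 652 and 682 in control; the groups overlap, and the log2 difference of 0.07 ± 0.13 did not pass the test (adjusted p = 0.777). FCGR2B gave 900.1 and 772 against 411 and 438 in control and rose 1.97-fold (0.97 ± 0.12, adjusted p = 2.85e-04). FCGR2B has a near-identical paralogue, FCGR2C, so its probe set may read both. FCER1G, the signalling chain shared by activating Fc receptors, gave 4342 and 3941 against 3008 and 3204 (0.41 ± 0.09). FCER2 (CD23), the low-affinity IgE receptor, gave 467 and 448 against 178 and 213 (1.23 ± 0.37, adjusted p = 0.0383). In all, 3 of the 7 measured genes of this list rose and 0 fell; 2 rose in each fit without 1 array. The other 3 did not pass: FCGR3B at 0.76 ± 0.61, the neonatal receptor FCGRT at 0.42 ± 0.18 and the cytosolic antibody receptor TRIM21 at 0.41 ± 0.14.

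Below the receptors, 4 of 37 kinases, phosphatases and adaptors rose and 4 fell, with a median log2 difference of -0.02 (-0.08 to 0.00 with 1 array of the comparison left out), near the background shares. LYN, a Src family kinase, gave 1114 and 1367 after CD32 6 h and 654 and 639 in control (0.93 ± 0.22). DOK2, an inhibitory adaptor, gave 596 and 451 against 298 and 262 (0.89 ± 0.20), and the phosphatase PTPRC (CD45) rose 1.38-fold. Among the falls were the adaptor GAB2, with 303 and 234 against 610.2 and 589 (-1.17 ± 0.21), the kinase BTK, with 451 and 584 against 844 and 858 (-0.73 ± 0.16), and the kinase subunit PIK3CB (-0.92 ± 0.24). The related PIK3CD, which had the highest signal of those that missed the threshold, gave 2179.5 and 1891 against 2432 and 2500.3 (adjusted p = 0.193). Fewer genes of this list were called in each fit with 1 array left out. With median-centred arrays 3 were called higher and 2 lower, and in the 4-array fit 1 and 0.

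Immediate early transcription factors, which cells induce within minutes of a stimulus, were higher after 6 h of CD32. Of 28 tested 16 rose and 2 fell, with a median log2 difference of 1.48 against -0.08 over all genes. FOSB, a subunit of the AP-1 factor, gave 631 and 628 on the CD32 6 h arrays and 15 and 5.3 on the control arrays, at least 16.8-fold higher (4.07 ± 0.35, adjusted p = 2.19e-05). EGR1, a zinc finger factor, gave 1038 and 878 against 62.4 and 63.4 in control, 15.2-fold higher (3.92 ± 0.31). IER3, a stress-inducible survival regulator, gave 1519.8 and 1667 against 179 and 138 (3.34 ± 0.16). In each of the 3 the groups lay far apart. The other 13 that rose were FOS, FOSL1, JUNB and JUND of the AP-1 family, the related factor ATF3, EGR3 and the EGR corepressor NAB2, the nuclear receptor NR4A2, KLF4, KLF10, IER2, SRF and MAFF. Their log2 differences ran from 0.98 ± 0.17 for MAFF to 2.95 ± 0.20 for KLF10. SRF, the factor that binds the CArG box of many such genes, gave 317 and 412 against 153 and 109 in control. JUN, named after its values were seen as the founding AP-1 gene, gave 121 and 141 against 87.1 and 51.3 (0.96 ± 0.38) and did not pass, nor did CEBPB, a leucine zipper factor (0.28 ± 0.12).

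The factors that fell were MYC and KLF6. MYC, which drives growth and division, gave 346 and 329 after CD32 6 h and 1788 and 2059 in control, 5.69-fold lower (-2.51 ± 0.14, adjusted p = 1.47e-06). KLF6, a Krüppel-like factor, gave 229.8 and 242 against 576 and 504 (-1.19 ± 0.29). Neither gene's groups overlapped. With any 1 array left out 15 or 16 of the list were called higher, and 7 in the 4-array fit.

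Promoter sequence was looked up because these genes moved together. The RefSeq table (GRCh38.p14) gave windows of 250 bases before to 50 after the start for 5547 of the 6814 genes. The windows of FOSB (chr19:45467746-45468045, plus strand) and EGR1 (chr5:138465229-138465528, plus strand) are shown here, with motif matches in capitals.
FOSB: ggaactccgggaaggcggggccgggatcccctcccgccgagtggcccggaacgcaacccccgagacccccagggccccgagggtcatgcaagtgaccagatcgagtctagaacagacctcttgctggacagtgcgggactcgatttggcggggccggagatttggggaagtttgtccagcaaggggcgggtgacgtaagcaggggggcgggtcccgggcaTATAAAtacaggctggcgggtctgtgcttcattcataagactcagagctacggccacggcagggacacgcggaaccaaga
EGR1: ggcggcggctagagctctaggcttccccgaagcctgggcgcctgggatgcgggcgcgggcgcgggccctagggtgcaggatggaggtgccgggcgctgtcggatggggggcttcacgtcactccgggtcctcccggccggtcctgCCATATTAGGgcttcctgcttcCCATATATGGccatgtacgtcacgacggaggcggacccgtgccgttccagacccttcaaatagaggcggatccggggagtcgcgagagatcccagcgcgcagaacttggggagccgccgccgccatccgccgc
The capitals mark a TATA box (TATAAA) in FOSB and 2 CArG boxes, sites of the SRF type, in EGR1. Each motif was searched on both strands; a CArG match can itself hold TATAAA or CCAAT, so these counts may overlap. A TATA box was in 4 of the 11 matched genes of the list that rose and in 4 of all 21 matched. It was in 8.98% of the genes tested and in 12% of all 27305 promoters. For the CArG box these were 2 of 11, 2 of 21, 1.66% and 1.29%. Other motifs were searched too: a CRE (TGACGTCA) was in 2 of 11, 2 of 21, 2.99% and 1.98%. An AP-1 site (TGANTCA) was in 0 of 11, 1 of 21, 6.11% and 7.76%. A match describes the letters only.

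Genes that damp receptor signals changed in part: of 18 MAP kinase phosphatases and feedback inhibitors 7 rose and 2 fell, with a median of 0.48 (0.27 to 0.66 with 1 array left out). DUSP5, a nuclear phosphatase of ERK, gave 1475 and 1693 after CD32 6 h and 296 and 186 in control (2.75 ± 0.21, adjusted p = 9.69e-06). TRIB1, a pseudokinase, gave 578 and 466 against 94.4 and 60.5 (2.78 ± 0.34). RGS1, which shortens signalling by G protein-coupled chemokine receptors, gave 496 and 975 against 116 and 67.4 (2.98 ± 0.50). The CD32 6 h arrays lay above the controls in all of these, and the 2 RGS1 values differed from each other. ZFP36L2, an mRNA-destabilising protein, gave 3030.0 and 3137 against 6881 and 7139 in control (-1.18 ± 0.08), and DUSP3 fell 1.89-fold.

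Chemokines, which attract leukocytes, rose in 8 of 25 cases and fell in 0, with a median of 0.25 (0.17 to 0.80 with 1 array left out). CCL2, an attractant of monocytes, gave 2040.0 and 1387 on the CD32 6 h arrays and 148 and 156 on the control arrays, 11.1-fold higher (3.47 ± 0.15, adjusted p = 2.99e-07). CXCL8, an attractant of neutrophils, gave 1013 and 952 against 198 and 151 in control, 5.69-fold higher (2.51 ± 0.14). CCL4 gave 476 and 348 against 145 and 6.7; 1 control array lay under the floor, on which its 5.52-fold rise depends. CCL5, by contrast, gave 3374 and 2806 against 2547 and 2637 and did not pass (adjusted p = 0.112). The count of 8 was 5 without CD32 6 h replicate 1.

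Cytokines and growth factors went both ways, 6 of 23 up and 2 down, with a median of -0.14 (-0.24 to 0.07 with 1 array left out). IL1RN, the antagonist of the interleukin-1 receptor, gave 1209.8 and 1028 after CD32 6 h and 302 and 277 in control, 3.86-fold higher (1.95 ± 0.15). HBEGF, an epidermal growth factor family ligand, gave 354 and 280.1 against 97.8 and 67.0 (1.96 ± 0.51). TNF, an inflammatory cytokine, was weak: it gave 164 and 100.5 against 21.6 and 47.0, at least 3.05-fold higher (adjusted p = 0.0405). MIF, a macrophage cytokine, gave 6034 and 5975 against 8913 and 10059.7 (-0.66 ± 0.11), and the TNF family ligand TNFSF9 fell 2.26-fold. TGFB1 gave 2164 and 2422 against 1876 and 2076 and did not pass. The 6 rises were 3 without either CD32 6 h array and 2 in the 4-array fit, and the 2 falls were 4 without control replicate 2 and 1 without either CD32 6 h array.

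Receptors for chemoattractants were up in 6 of 18 genes and down in 1, with a median of 0.57 (0.38 to 0.68 with 1 array left out). C5AR1, the receptor for complement fragment C5a, gave 275 and 375 after CD32 6 h and 63.7 and 70.3 in control, 4.8-fold higher (2.26 ± 0.29). C3AR1, which binds C3a, gave 1043 and 859.8 against 293 and 349 (1.57 ± 0.17). PTAFR, the receptor for platelet-activating factor, gave 248 and 316 against 59.1 and 147 (1.59 ± 0.42). CXCR4, the receptor for CXCL12, moved the other way, with 3608 and 4229 against 7377 and 7252 in control (-0.90 ± 0.10, adjusted p = 8.04e-05). CCR2, which binds CCL2, gave 71.3 and 144 against 225 and 117; its groups overlap.

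Of 23 genes of the NF-kappaB system 10 rose and 1 fell, with a median of 0.44 (0.26 to 0.62 with 1 array left out), and 9 or 10 rose with any 1 array left out. CD83, a maturation marker of antigen-presenting cells, gave 1051 and 900.5 after CD32 6 h and 168 and 107 in control, 7.26-fold higher (2.86 ± 0.22). GCH1, the first enzyme of tetrahydrobiopterin synthesis, gave 528 and 622 against 128 and 99.0 (2.35 ± 0.19). TNFAIP8, an apoptosis regulator, gave 849 and 1111 against 2019 and 1965 and fell 2.05-fold. BCL2A1, a survival protein, gave 2898 and 3161 against 2389.7 and 2669 and did not pass (adjusted p = 0.143).

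Of 42 type I interferon-stimulated genes, most of them antiviral effectors, 26 rose and 0 fell, with a median of 0.82; 21 to 23 rose with any 1 array left out, and 16 in the 4-array fit. ISG15, a ubiquitin-like modifier, gave 3889 and 3975 on the CD32 6 h arrays and 521 and 806 on the control arrays, 6.07-fold higher (2.60 ± 0.19, adjusted p = 6.26e-06). PLSCR1, a scramblase with antiviral activity, gave 2304 and 2238 against 372 and 447 in control, 5.56-fold higher (2.48 ± 0.11). IFI44L gave 292 and 348 against 42.8 and 4.3, at least 7.95-fold higher (2.99 ± 0.43). In all of these both CD32 6 h arrays lay far above both controls and close to each other. The other 23 that rose were ISG20, IFI6, IFI16, IFI27, IFI44, IFIH1, IFIT1, IFIT3, IFIT5, IFITM1, IFITM3, MX2, OAS1, OAS2, OAS3, OASL, HERC5, EIF2AK2, ADAR, LGALS9, SP110, NMI and TNFSF10. Their log2 differences ran from 0.34 ± 0.09 for IFI16 to 2.43 ± 0.27 for IFI44. IFITM2, whose sequence is close to that of IFITM1 and IFITM3, gave 6954 and 5661 against 4645 and 5091 and missed the threshold (adjusted p = 0.0581). GBP1 and GBP2, GTPases known to respond to the interferon gamma given to all cells, were looked up after the values were seen and did not pass (0.10 ± 0.29 and -0.04 ± 0.10).

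The promoters of the 3 genes named first in this list are shown, with matches in capitals: IFI44L (chr1:78620198-78620497, plus strand), ISG15 (chr1:1013247-1013546, plus strand) and PLSCR1 (chr3:146544558-146544857, minus strand).
IFI44L: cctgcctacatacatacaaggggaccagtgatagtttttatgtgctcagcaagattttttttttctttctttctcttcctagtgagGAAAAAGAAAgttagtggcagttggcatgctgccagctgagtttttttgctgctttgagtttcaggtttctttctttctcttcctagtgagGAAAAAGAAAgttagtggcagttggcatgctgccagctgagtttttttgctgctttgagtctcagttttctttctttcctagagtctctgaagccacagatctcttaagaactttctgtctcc
ISG15: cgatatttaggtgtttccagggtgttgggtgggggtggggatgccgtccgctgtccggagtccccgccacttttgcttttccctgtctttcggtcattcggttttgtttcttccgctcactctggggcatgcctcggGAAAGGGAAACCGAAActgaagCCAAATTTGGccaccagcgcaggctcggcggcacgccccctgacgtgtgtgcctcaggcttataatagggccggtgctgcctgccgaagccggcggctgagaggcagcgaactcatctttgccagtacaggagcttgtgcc
PLSCR1: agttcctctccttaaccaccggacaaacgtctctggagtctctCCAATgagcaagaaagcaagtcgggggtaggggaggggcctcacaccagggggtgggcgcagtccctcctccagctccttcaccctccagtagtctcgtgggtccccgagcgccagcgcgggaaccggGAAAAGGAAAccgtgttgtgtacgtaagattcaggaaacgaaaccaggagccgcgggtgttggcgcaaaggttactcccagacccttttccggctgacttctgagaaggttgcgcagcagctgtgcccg
The capitals mark the core of the interferon-stimulated response element (ISRE, searched as GAAA, any 2 bases and GAAA on both strands), 2 in IFI44L, 2 overlapping ones in ISG15 and 1 in PLSCR1. They also mark a CArG box in ISG15 and a CCAAT box in PLSCR1. An ISRE was present in 25 of the 34 matched genes of the list, in 19 of the 23 among them that rose, and in 3.65% of all 27305 promoters. Over all genes it was in 7.69% of the promoters of those that rose, in 1.53% of those that fell and in 3.43% of all genes tested. The ISRE genes of the list are part of the share among all that rose.

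Among interferon regulatory factors and JAK-STAT genes 6 of 34 rose and 5 fell, or 3 fell without CD32 6 h replicate 1, without control replicate 1 or with median-centred arrays. CSF2RB, the shared beta chain of the GM-CSF and interleukin-3 receptors, gave 982 and 993 after CD32 6 h against 492 and 408 in control (1.14 ± 0.13). IL4R gave 743 and 854 against 333 and 299 (1.34 ± 0.18) and IL10RA 831 and 723 against 398 and 364 (1.03 ± 0.16). All of these cytokine receptor chains lay above both controls. IL6R, the interleukin-6 receptor, gave 179.7 and 220.5 against 632 and 668 (-1.71 ± 0.17), and PIAS1 and PIAS3, inhibitors of activated STATs, fell 2.25-fold and 2.06-fold.

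Antigen presentation genes rose in part. Among the 14 genes of MHC class II the test called 5 higher and 0 lower, and the median was 0.58. HLA-DRA, the class II alpha chain, gave 2229.8 and 2233 after CD32 6 h and 857 and 967 in control (1.29 ± 0.11, adjusted p = 2.37e-05). CD74, the invariant chain, gave 4449.8 and 4031 against 1456 and 1864 (1.36 ± 0.12), and the peptide loader HLA-DMA gave 715 and 625 against 307 and 228 (1.34 ± 0.18). RFX5, a factor that binds class II promoters, gave 414 and 491 against 530.4 and 569.6 and did not pass. Of 18 class I genes 5 rose and 0 fell, but with each array centred on its median or quantile-normalized only 2 did, and 1 or 2 rose without CD32 6 h replicate 1, CD32 6 h replicate 2 or control replicate 1. B2M, the class I light chain, gave 24066 and 23636 against 17027 and 16229 in control (0.52 ± 0.10). TAPBP, which bridges class I to the peptide transporter, gave 4804 and 3847 against 1968 and 2899 (0.85 ± 0.16). HLA-E, which shares sequence with other class I genes, gave 2656 and 2644 against 1455 and 1962 (0.65 ± 0.17).

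Costimulatory and accessory molecules rose in 6 of 18 cases and fell in 1; 3 rose and 0 fell, by limma, without either CD32 6 h array. CD58, a ligand of CD2 on T cells, gave 418 and 436 after CD32 6 h and 134 and 119.6 in control (1.75 ± 0.16). SLAMF1, a self-binding receptor of leukocytes, gave 171 and 217 against 94.7 and 41.5 (1.62 ± 0.44). CD70, a TNF family ligand, gave 92.2 and 68.4 against 339.7 and 304 (-2.02 ± 0.49).

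**Figure D3:**
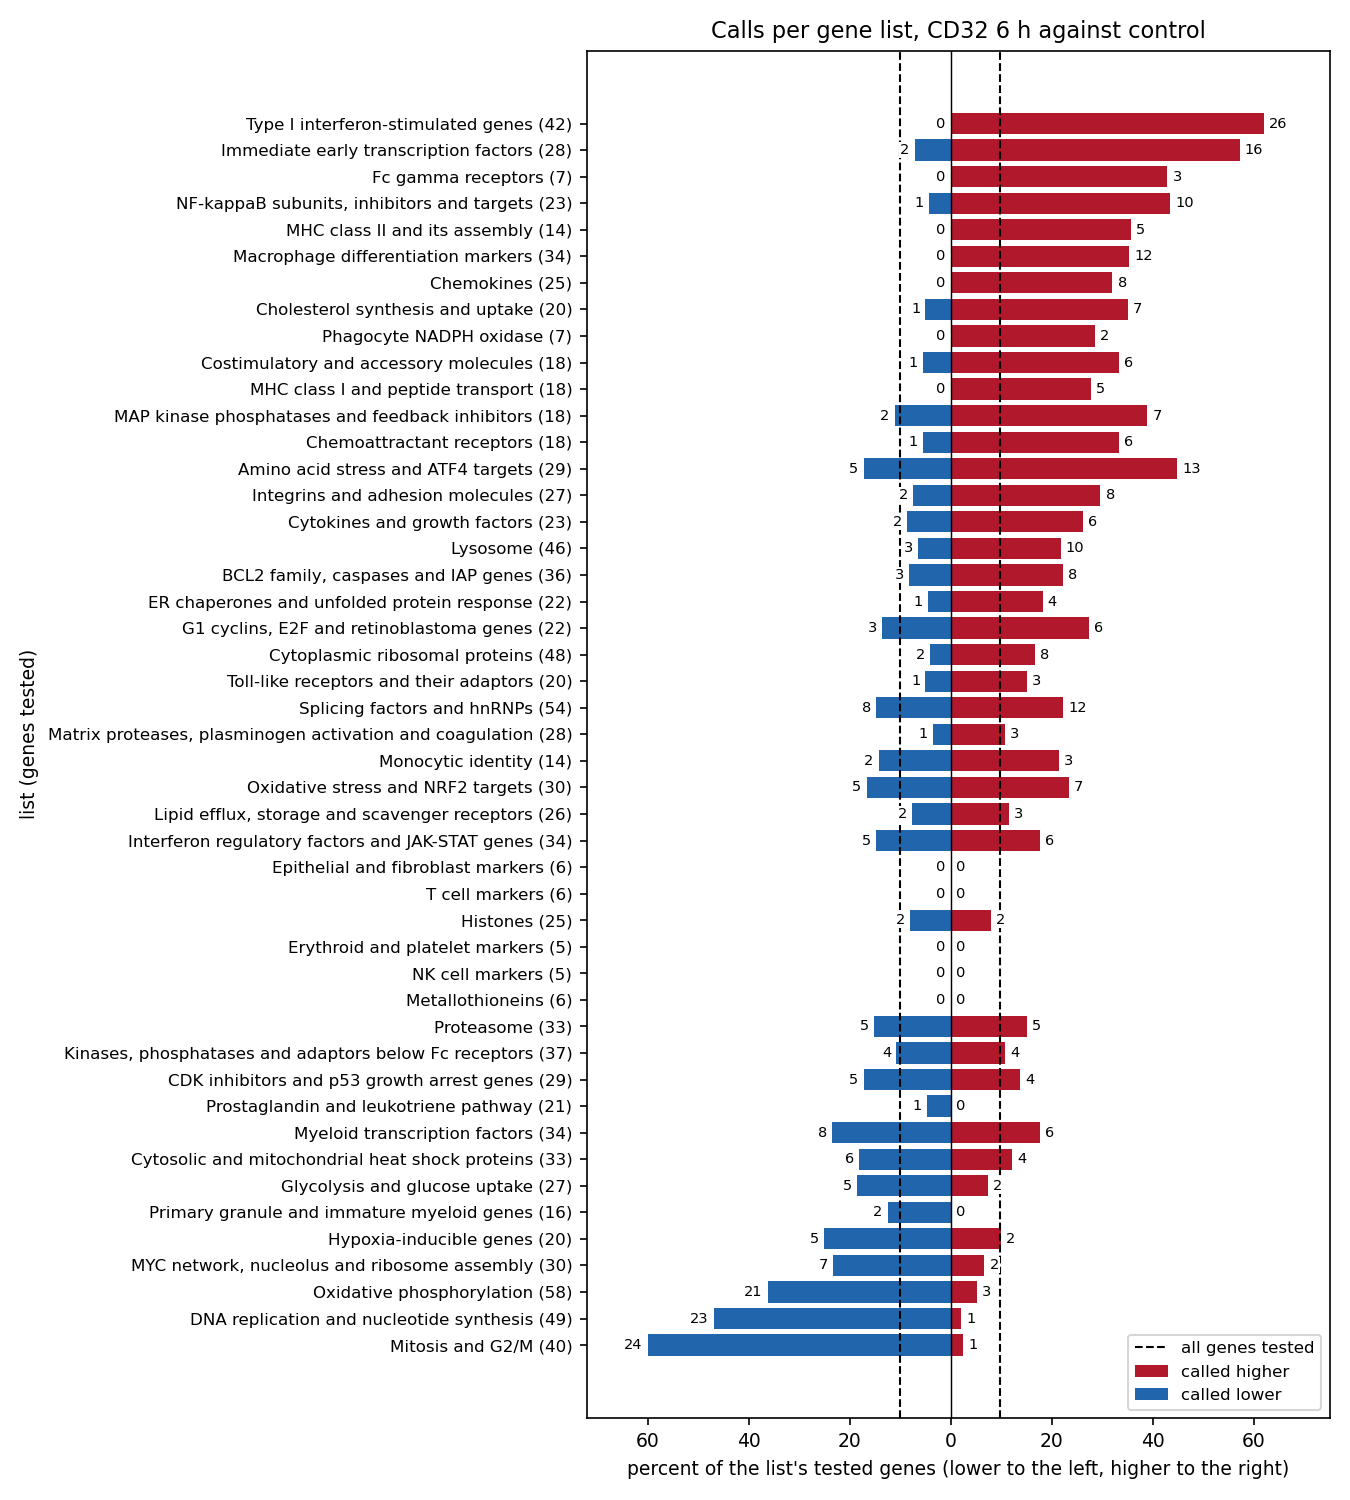
Bars give the percentage of each list's tested genes called higher (red, to the right) or lower (blue, to the left) after CD32 6 h, with the counts beside them; dashed lines are the shares over all genes, 9.69% and 10%. Interferon-stimulated genes (26 of 42 higher) and immediate early factors (16 of 28) lead on the right, and mitosis (24 of 40 lower) and DNA replication (23 of 49) on the left; lists with fewer than 5 tested genes are left out.

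Cell division genes were lower. Of 40 genes of mitosis and the G2/M phase 24 fell and 1 rose, with a median log2 difference of -0.55. ESPL1, the separase that cuts cohesin, gave 415 and 514 on the CD32 6 h arrays and 1022 and 1189 on the control arrays, 2.39-fold lower (-1.25 ± 0.18, adjusted p = 5.46e-04). MAD2L1, of the spindle checkpoint, gave 819 and 1192 against 2096 and 1937 in control (-1.03 ± 0.19). AURKB, the kinase of the chromosomal passenger complex, gave 355 and 340.1 against 679 and 689 (-0.98 ± 0.24). The groups did not overlap in these 3. STMN1, a microtubule destabiliser, was the one that rose, with 1312 and 1492 against 798 and 1111 (0.57 ± 0.17). TPX2, a spindle assembly factor and the brightest of those not called, gave 3283 and 3362 against 3326 and 3890.2. The count of 24 was 14 without CD32 6 h replicate 1, 15 without either control array, 13 with median-centred arrays and 9 in the 4-array fit.

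Promoters of the 3 named genes that fell are given because CCAAT boxes are known from many promoters of this class: ESPL1 (chr12:53268049-53268348, plus strand), MAD2L1 (chr4:120066799-120067098, minus strand) and AURKB (chr17:8210176-8210475, minus strand).
ESPL1: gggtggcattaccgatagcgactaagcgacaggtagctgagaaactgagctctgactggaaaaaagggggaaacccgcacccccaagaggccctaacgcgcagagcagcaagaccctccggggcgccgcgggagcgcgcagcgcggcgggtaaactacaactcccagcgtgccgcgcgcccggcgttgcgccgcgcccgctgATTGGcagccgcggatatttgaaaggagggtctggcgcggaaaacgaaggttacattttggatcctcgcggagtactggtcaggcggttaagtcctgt
MAD2L1: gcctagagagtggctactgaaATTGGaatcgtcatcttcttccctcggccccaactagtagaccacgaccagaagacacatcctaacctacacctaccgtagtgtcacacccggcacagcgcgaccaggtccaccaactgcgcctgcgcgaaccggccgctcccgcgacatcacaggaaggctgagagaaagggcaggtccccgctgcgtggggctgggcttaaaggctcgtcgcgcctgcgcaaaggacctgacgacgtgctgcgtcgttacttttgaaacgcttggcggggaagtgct
AURKB: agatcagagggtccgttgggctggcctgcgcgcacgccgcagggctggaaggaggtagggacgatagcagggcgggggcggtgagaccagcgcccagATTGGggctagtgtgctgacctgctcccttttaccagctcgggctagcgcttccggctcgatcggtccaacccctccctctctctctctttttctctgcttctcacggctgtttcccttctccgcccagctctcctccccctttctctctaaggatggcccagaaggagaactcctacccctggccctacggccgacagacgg
The capitals mark a CCAAT box (CCAAT on either strand), 1 in each window. It was in 16 of the 21 matched genes of the list that fell, in 24 of the 33 of the list that were matched in all, and in 35.7% of all promoters. Among all genes that fell the share was 36.8%, and among those that rose 37.4%.

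DNA replication and nucleotide synthesis showed 23 falls and 1 rise among 49 genes, with a median of -0.46. ORC2, of the origin recognition complex, gave 168 and 158 after CD32 6 h and 540.2 and 369 in control (-1.46 ± 0.27). RFC5, of the clamp loader, gave 156 and 283 against 607 and 610.4 (-1.53 ± 0.24). POLA2, of DNA polymerase alpha, gave 136 and 36.8 against 179.8 and 288; 1 CD32 6 h array lay under the floor, on which its 3.19-fold fall depends. ORC4, another subunit of the origin complex, rose, with 1016 and 781 against 609 and 544 (0.63 ± 0.14). TYMS, the thymidylate synthase and the brightest gene not called, gave 8019.6 and 6452 against 8539 and 11442 (adjusted p = 0.0607). The count of 23 was 15 without control replicate 2, 14 with median-centred arrays and 7 in the 4-array fit.

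The inhibitors of cyclin-dependent kinases did not move as one group. Of 29 genes of this list and of p53 growth arrest 4 rose and 5 fell, with a median of 0.03 (-0.16 to 0.21 with 1 array left out), although CDKN1A rose at least 29.6-fold. CDKN1B, which encodes the related inhibitor p27, gave 890.0 and 1162 after CD32 6 h and 2173 and 1966 in control, 2.03-fold lower (-1.02 ± 0.12, adjusted p = 1.82e-04). TNFRSF10B, a death receptor for TRAIL, gave 1536 and 1615 against 524 and 424 (1.74 ± 0.13), and PMAIP1 (NOXA), a killer BH3-only protein, gave 535 and 707 against 250.1 and 226 (1.37 ± 0.16). These are textbook p53 targets, as is DDB2, a DNA damage sensor, which went down: 434 and 200.4 against 959.6 and 1137 (-1.82 ± 0.28). CDKN3, a phosphatase of cyclin-dependent kinases, fell 1.74-fold, and CCNG2 did not pass (0.53 ± 0.18).

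G1 cyclins, E2F factors and retinoblastoma genes rose in 6 and fell in 3 of 22 cases. CCND3, a D-type cyclin, gave 2426 and 2196 after CD32 6 h and 794 and 898 in control (1.45 ± 0.12, adjusted p = 1.30e-05). CDC25A, the phosphatase that activates CDK2, gave 262 and 295 against 111 and 51.3 (1.88 ± 0.36), and E2F6, a repressive E2F, gave 577 and 567 against 162 and 224 (1.59 ± 0.18). RB1, the retinoblastoma protein, gave 863 and 875 against 1407 and 1199 (-0.58 ± 0.15), and its relative RBL2 fell 1.97-fold. CDK6 was weak, with 52.4 and 21.8 against 212 and 104, at least 3.35-fold lower, while CDK4 gave 1863 and 1654 against 1829.9 and 2075 and overlapped between groups. None of the 3 falls was called without CD32 6 h replicate 1, and 1 was called without CD32 6 h replicate 2 or control replicate 1.

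Of 30 genes around MYC and the nucleolus 7 fell, MYC among them, and 2 rose, with a median of -0.05 (-0.15 to -0.10 with 1 array left out). NPM3, a nucleolar chaperone, gave 711 and 700.5 after CD32 6 h and 1326 and 1314 in control (-0.90 ± 0.13), and MLX, a partner of the MAX network, gave 529.6 and 553 against 955 and 968 (-0.83 ± 0.12). MNT, which opposes MYC at MAX, gave 369 and 411 against 205 and 236 (0.82 ± 0.24), and the RNA polymerase subunit POLR1D rose 1.71-fold. NPM1, an abundant nucleolar protein, gave 13048 and 14640.2 against 14593 and 12484; its difference of 0.03 ± 0.11 did not pass. With any 1 array left out 3 or 4 of the 30 were called lower.

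**Figure D4:**
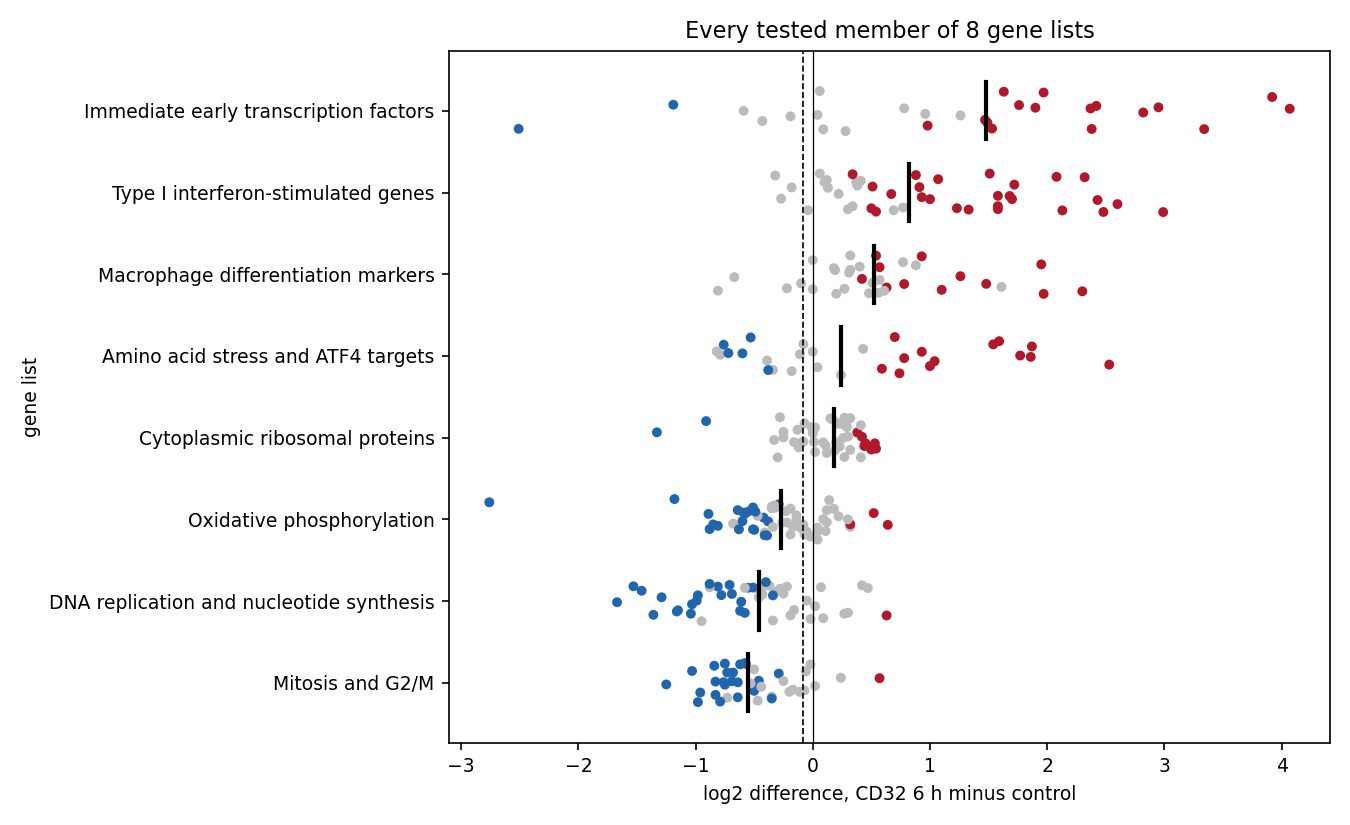
Each point is a tested member of 1 of 8 lists, placed by its log2 difference (CD32 6 h minus control); red was called higher, blue lower, grey neither. Black bars are list medians (1.48 for immediate early factors and -0.55 for mitosis), the dashed line is the median of all genes, -0.08, and the vertical scatter within a list has no meaning.

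Genes of the amino acid stress response, many of them targets of the transcription factor ATF4, rose in 13 of 29 cases and fell in 5, with a median of 0.24 (0.19 to 0.39 with 1 array left out). SLC38A2, an amino acid transporter, gave 6393 and 6145 after CD32 6 h and 1126 and 1049.8 in control, 5.76-fold higher (2.53 ± 0.10, adjusted p = 8.81e-08). SLC7A5, a transporter of large neutral amino acids, gave 1758 and 1717 against 534 and 423 (1.87 ± 0.13), and the pseudokinase TRIB3 gave 2314 and 2219.9 against 589 and 658 (1.86 ± 0.11). The members that fell were not transporters: among them were AARS1, the alanyl-tRNA synthetase, with 899 and 836 against 1431 and 1419 (-0.72 ± 0.10), PHGDH, the first enzyme of serine synthesis (-0.60 ± 0.11), and VLDLR, a lipoprotein receptor (-0.76 ± 0.21). Another synthetase, WARS1, gave 6644 and 7467 against 5368 and 6611 and did not pass. The 5 falls were 3 without CD32 6 h replicate 1 or control replicate 2, and 1 with median-centred arrays.

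Of 22 genes of the unfolded protein response in the endoplasmic reticulum 4 rose and 1 fell. DNAJB9, a co-chaperone of BiP, gave 1588 and 1589 after CD32 6 h and 369 and 450.0 in control (1.96 ± 0.12, adjusted p = 2.62e-06). EIF2AK3 (PERK), the sensor kinase, gave 445 and 385 against 256 and 152 (1.07 ± 0.26), and XBP1, a transcription factor of the response, gave 969 and 1167 against 881 and 664 (0.48 ± 0.14). P4HB, a disulfide isomerase, fell 1.39-fold, and PDIA6, a related enzyme, gave 5041 and 5211 against 6109.5 and 6565 without passing. The count of 4 rises was 2 without CD32 6 h replicate 1 and 1 without CD32 6 h replicate 2 or control replicate 2.

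Heat shock proteins went both ways, 4 of 33 up and 6 down, with a median of -0.01. Over all genes the shares were 9.69% up and 10% down. HSP90AA1, the inducible cytosolic HSP90, gave 1787 and 1972 on the CD32 6 h arrays and 6579 and 6956 on the control arrays, 3.6-fold lower (-1.85 ± 0.09, adjusted p = 3.78e-07). HSPA6, a strictly inducible HSP70, gave 150.2 and 140.1 against 557 and 624 (-2.02 ± 0.27). DNAJA1, a cytosolic co-chaperone of HSP70, gave 1141 and 1345 against 574 and 497 (1.21 ± 0.12), and HSPA14 gave 941 and 978 against 501 and 528 (0.90 ± 0.11). DNAJA2 rose 1.64-fold and the mitochondrial DNAJA3 fell 1.75-fold. HSPD1, the mitochondrial HSP60, gave 13069 and 12403 against 12833 and 12549, a difference of 0.00 ± 0.10.

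Oxidative stress genes rose in 7 and fell in 5 of 30 cases. TXNIP, an inhibitor of thioredoxin, gave 3033 and 2719 after CD32 6 h and 537 and 487 in control (2.49 ± 0.09, adjusted p = 8.81e-08). SLC7A11, the cystine transporter, gave 540.0 and 498 against 174 and 171 (1.59 ± 0.14), and SQSTM1, an autophagy receptor, gave 1448 and 1699 against 478 and 608 (1.54 ± 0.13). GSR, the glutathione reductase, gave 406 and 241 against 613 and 829 (-1.19 ± 0.24), the exporter ABCC1 fell 1.85-fold and the catalase CAT 1.37-fold. PRDX1, a peroxidase, gave 9000.2 and 9086 against 7930.3 and 8212 and did not pass, and of 6 metallothioneins, which bind metals, 0 were called in either direction by limma, at log2 differences of -0.60 to 0.27. The 7 rises were 4 without CD32 6 h replicate 2 or control replicate 1, and the 5 falls 2 or 3 without CD32 6 h replicate 1 or either control array, and 2 with median-centred arrays.

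Regulators of cell death rose in 8 and fell in 3 of 36 cases, with 7 or 8 rises and 3 falls with any 1 array left out. MCL1, a survival member of the BCL2 family, gave 3864 and 3512 after CD32 6 h and 1682 and 1483 in control (1.22 ± 0.17). BAK1, a pore-forming killer, gave 611 and 518 against 265 and 280.1 (1.04 ± 0.18). BNIP3 and BNIP3L, mitophagy receptors induced by hypoxia, gave 1532 and 1553 against 2379 and 2801 (-0.74 ± 0.13) and 1108 and 1092 against 1792 and 1826 (-0.72 ± 0.08), and DIABLO, which blocks IAP proteins, fell 1.59-fold. Both survival and killer genes were among the rises, with PMAIP1 as above.

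The list of cholesterol synthesis and uptake, which also holds the fatty acid genes FASN and SCD, rose in 7 of 20 genes and fell in 1. Its median was 0.18 (0.09 to 0.24 with 1 array left out). HMGCS1, the synthase that starts the mevalonate pathway, gave 1347 and 1350.0 after CD32 6 h and 602 and 592 in control (1.18 ± 0.21, adjusted p = 0.00251). SC5D, a late sterol desaturase, gave 1589.6 and 1884 against 642 and 868 (1.21 ± 0.15), and FASN, the fatty acid synthase, gave 1003 and 1332 against 532 and 516 (1.14 ± 0.20). FDPS, which makes farnesyl diphosphate, fell 1.26-fold, and the desaturase SCD gave 7004 and 7565 against 5909 and 5895 without passing. The fall of FDPS was not called with any 1 array left out. Among 26 genes of lipid efflux and storage 3 rose and 2 fell: NPC1 and NPC2, which move cholesterol out of lysosomes, rose 1.65-fold and 1.23-fold, and the acyl-CoA synthetase ACSL1 1.72-fold. MYLIP, a ubiquitin ligase of the LDL receptor, gave 165 and 122 against 472 and 505 (-1.78 ± 0.30), and the lipid droplet coat PLIN2 fell 1.91-fold.

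Glycolysis went 2 up and 5 down of 27, and hypoxia-inducible genes 2 up and 5 down of 20. PKM, the pyruvate kinase, gave 15584 and 13519 after CD32 6 h and 4512 and 5825 in control (1.5 ± 0.13, adjusted p = 1.73e-05), and PFKFB3, which makes the activator of phosphofructokinase, rose 2.29-fold. HK2, a hexokinase, gave 952 and 881 against 2489 and 2081 (-1.31 ± 0.16), SLC2A5, a fructose transporter, gave 950.5 and 890.2 against 1882 and 1941 (-1.05 ± 0.10), and the aldolase ALDOC fell 1.8-fold. Of the hypoxia-inducible genes ADM, a vasodilator peptide, gave 178 and 187 against 416 and 486 (-1.30 ± 0.27) and MXI1 fell 1.72-fold. NDRG1, another gene of this list, gave 7130.1 and 6929 against 6556 and 7185 and did not pass. The hypoxia factors themselves were higher: EPAS1 gave 359 and 461 against 145 and 189 (1.30 ± 0.20) and HIF1A 1942 and 1741 against 1576 and 1333 (0.34 ± 0.11). Of the falls of glycolysis 3 were called without CD32 6 h replicate 1 or control replicate 2.

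Oxidative phosphorylation showed 21 falls and 3 rises among 58 genes, with a median of -0.27 (-0.32 to -0.14 with 1 array left out). NDUFS1, a core subunit of complex I, gave 398 and 460.1 after CD32 6 h and 954 and 982 in control (-1.18 ± 0.13), and NDUFA10, an accessory one, fell 1.85-fold. CYCS, cytochrome c, gave 6696 and 8121 against 4734 and 4739 (0.64 ± 0.10), and the complex I subunits NDUFB2 and NDUFAB1 rose 1.44-fold and 1.25-fold. ATP5F1A, another subunit of ATP synthase, gave 10327 and 10701 against 8665 and 9883 and did not pass, unlike ATP5F1C. The count of 21 depends on scaling and on single arrays: 5 with median-centred arrays, 12 without CD32 6 h replicate 1 or control replicate 2, 13 without CD32 6 h replicate 2, and 1 in the 4-array fit.

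Ribosomal protein genes had no settled direction. As deposited 8 of 48 rose and 2 fell, with a median of 0.18 (0.10 to 0.22 with 1 array left out), but under quantile normalization 0 rose and 8 fell, and under cyclic loess 5 rose and 7 fell. RPS18 gave 29958 and 29499 after CD32 6 h and 18009 and 23070.3 in control (0.54 ± 0.14), RPL9 28177 and 25052 against 18938 and 17817 (0.53 ± 0.11), and RPL30 32966 and 27944 against 20154 and 23010.2 (0.50 ± 0.13). These are among the brightest probe sets, and the highest signal of the whole array was 36977.6 and 37995 after CD32 6 h, against 27987 and 28036 in control. RPL38 and RPL31 lay far lower, with 330.1 and 408 against 856 and 992 (-1.33 ± 0.25) and 351 and 460.4 against 768 and 746 (-0.91 ± 0.16); a second RPL31 probe set stood at 0.14 and was not called. The count of 8 was 1 without CD32 6 h replicate 1, 4 without CD32 6 h replicate 2 and 2 without control replicate 1.

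Splicing factors went both ways, 12 of 54 up and 8 down, with a median of -0.09 (-0.16 to -0.04 with 1 array left out). Besides SFPQ, the branch point protein SF1 gave 2238 and 2100.0 after CD32 6 h and 632 and 649 in control (1.76 ± 0.10, adjusted p = 1.57e-06), and HNRNPAB, an RNA-binding protein, gave 1745 and 1530.1 against 780.0 and 784 (1.06 ± 0.10). SNRPD3, a core snRNP protein, gave 2572 and 1775 against 4115 and 4221 (-0.96 ± 0.18), and the SR proteins SRSF4 and SRSF5 fell 1.76-fold and 1.65-fold. With median-centred arrays 4 of the splicing factors fell. SNRPD2, which pairs with other Sm proteins, gave 7163 and 6662 against 6940.1 and 9064; its groups overlap. Proteasome subunits changed in 5 of 33 cases upward and 5 downward: PSMD3 rose 2.09-fold, PSMD12 1.86-fold and PSMA3 1.5-fold, while PSMC6, PSMD9 and PSMD10 fell 1.62-fold, 1.61-fold and 1.52-fold. With 1 array left out 2 or 3 subunits rose, 2 fell without CD32 6 h replicate 1 and 3 without control replicate 2, and 1 fell with median-centred arrays. Of 25 histone genes 2 rose and 2 fell. H2BC12 gave 1186 and 1104 against 797 and 713 (0.60 ± 0.11), H2AZ2 rose 1.36-fold, and the linker histone H1-10 gave 681 and 691 against 1002 and 1363 (-0.77 ± 0.19). H4C11 was read at 12.7 and 15.2 against 106 and 63.5, at least 2.19-fold lower, and H2AZ1 did not pass (0.05 ± 0.09). Histone genes share much sequence, so these probe sets may read several. The 2 falls were 0, by limma, without either CD32 6 h array or with median-centred arrays.

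Macrophage differentiation markers rose in 12 of 34 cases and fell in 0, with a median of 0.52. ANXA1, an anti-inflammatory annexin, gave 7719 and 7560.1 after CD32 6 h and 2117 and 1788 in control (1.97 ± 0.11, adjusted p = 1.47e-06). EMP1, a membrane protein, gave 317 and 267 against 59.4 and 58.8 (2.30 ± 0.28). TREM1, which amplifies inflammation, gave 237 and 159 against 67.2 and 27.2; 1 control array lay under the floor, on which its 3.87-fold rise depends. S100A4, a calcium-binding protein, gave 9704 and 10155 against 7908 and 9614 and did not pass.

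Myeloid transcription factors changed in both directions, 6 of 34 up and 8 down. RUNX3, a Runt-domain factor, gave 1278 and 1235 after CD32 6 h and 382 and 412 in control (1.66 ± 0.11, adjusted p = 2.62e-06), KLF4, a factor of monocyte differentiation, 333 and 350.1 against 74.1 and 103 (1.97 ± 0.28), and MEF2C 263 and 216 against 112 and 96.0 (1.20 ± 0.30). Of those that fell, MEIS1, a homeobox factor, gave 155 and 233 against 876 and 786 (-2.13 ± 0.25), the erythroid and megakaryocytic factor NFE2 126 and 89.6 against 298 and 267 (-1.41 ± 0.37). MYB, a factor of immature blood cells, gave 2663 and 2109.6 against 5437 and 5102 (-1.15 ± 0.12) and the granulocytic repressor GFI1 203 and 269 against 743 and 1181 (-2.0 ± 0.25). MYB and GFI1 were the 2 falls among 16 primary granule and immature myeloid genes, of which 0 rose; CTSG, a granule protease, gave 10109 and 10600.1 against 8734 and 9971 and did not pass. The 6 rises of the factors were 3 without CD32 6 h replicate 1 or control replicate 2.

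Monocytic identity was checked with 14 measured markers, of which 3 rose and 2 fell. CD4, a surface glycoprotein of monocytes and T cells, gave 2474 and 2396 after CD32 6 h and 950.0 and 1092 in control (1.26 ± 0.13), the integrin ITGAM (CD11b) 784 and 710.2 against 482 and 481 (0.63 ± 0.13), and SPI1 (PU.1) 579.6 and 589 against 189 and 357 (1.17 ± 0.31). CEBPA gave 451 and 637 against 1217 and 1536 (-1.35 ± 0.19) and the peptidase ANPEP fell 1.29-fold, while the granule gene ELANE gave 4343 and 3590.2 against 4173 and 4637. CD14 was weak, at 54.4 and 18.4 against 9.4 and 4.1 in control. Markers of other lineages stayed uncalled: limma called 0 of 6 T cell, 0 of 4 B cell, 0 of 5 NK cell, 0 of 5 erythroid and platelet and 0 of 6 epithelial and fibroblast genes; without control replicate 1, 1 T cell gene was called lower. Their summed signals were 331 and 485 after CD32 6 h against 517 and 392 in control for T cells, 488 and 373 against 553 and 272 for B cells, and 2216 and 2248 against 2428 and 2327 for NK cells. NKG7, which made up most of the NK sum, gave 1914 and 2042 against 2109.8 and 2188. The sums were 550 and 531 against 465 and 416 for erythroid cells and platelets, and 349 and 407 against 435 and 292 for epithelial cells and fibroblasts. CD5 (136 and 155 against 183 and 107), CD79A (186 and 142 against 247 and 81.9), HBB (199 and 169.6 against 193 and 188) and COL1A2 (59.7 and 136 against 241 and 92.7) overlapped between groups.

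Lists for effector functions of phagocytes differed from each other. The Toll-like receptor list lay near the shares over all genes, 9.69% higher and 10% lower, and the prostaglandin and leukotriene list below both. Lysosomal genes rose in 10 and fell in 3 of 46 cases: the proton pump subunits ATP6V1B2 and ATP6V0B gave 4830.2 and 4440.0 against 2151 and 2588 (0.97 ± 0.10) and 3124 and 3258 against 1755 and 1594 (0.93 ± 0.10). The cathepsin CTSS gave 1874 and 1507 after CD32 6 h and 869 and 895 in control (0.93 ± 0.13), whereas CTSZ gave 178 and 371 against 559 and 644 (-1.22 ± 0.33). The hydrolases GUSB and NEU1 fell 1.28-fold and 1.28-fold, and the membrane protein LAMP1 did not pass (-0.28 ± 0.10). The 3 falls were 1 without CD32 6 h replicate 2 and 0, by limma, without control replicate 1. Of 7 subunits of the NADPH oxidase, which makes superoxide, 2 rose: CYBB gave 1539 and 1139 against 596 and 526 (1.24 ± 0.16) and RAC1 5786 and 5201 against 4499 and 4578 (0.27 ± 0.09). RAP1A did not pass (0.26 ± 0.12), and 1 of the 7 rose without CD32 6 h replicate 1 or either control array. Toll-like receptors and adaptors rose in 3 and fell in 1 of 20 cases: TLR4, the endotoxin receptor, gave 392 and 344 against 175 and 189 (1.01 ± 0.19), and the adaptor MYD88 rose 1.57-fold. TAB1 was read at 2.9 and 63.9 against 152 and 133, at least 2.9-fold lower. Of 21 genes of prostaglandin and leukotriene pathways 0 rose and 1 fell, the receptor PTGER4, with 781 and 1121 against 1870.3 and 2186 (-1.11 ± 0.16).

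Adhesion molecules rose in 8 and fell in 2 of 27 cases. ICAM1, a ligand of beta 2 integrins, gave 2581 and 2736 after CD32 6 h and 1091 and 958 in control (1.38 ± 0.11, adjusted p = 1.28e-05), and ITGAL, an integrin that binds it, 1065 and 826 against 411 and 396 (1.22 ± 0.20). TLN1, which links integrins to actin, gave 374 and 334 against 143 and 123 (1.41 ± 0.40). VCL, another linker at the same sites, gave 871 and 1001 against 1813 and 1536 (-0.84 ± 0.12), and ITGAE 838 and 828 against 1227 and 1287 (-0.59 ± 0.11). ITGB2, the shared beta chain, gave 7074 and 7593 against 5921 and 5899.7 and did not pass. Of 28 proteases and clotting genes 3 rose and 1 fell. Besides MMP1, PLAUR, the receptor of urokinase, gave 2959 and 2869 against 1132 and 1159.8 (1.35 ± 0.09) and the protease inhibitor TIMP1 2652 and 2922 against 2128 and 2170.5 (0.37 ± 0.08), while ADAM15, a metalloprotease, fell 1.67-fold, a fall not called with any 1 array left out.

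The 6 h level was next set against that after 2 h of CD32, which uses no control array but shares the CD32 6 h arrays with the comparison above. Limma called 344 of 7708 probe sets, or 4.46%: 157 higher at 6 h (2.04%) and 187 lower (2.43%). This count rests on the shared spread: 0 were called in a fit of these 4 arrays alone, where 1410 had an unadjusted p under 0.05, and 40 to 130 without 1 array (CD32 2 h replicates 1 and 2 at 52 and 40, CD32 6 h replicates 1 and 2 at 74 and 130). By gene, 135 of 6814 were higher (1.98%) and 159 lower (2.33%), with a median of -0.05. Immediate early genes were higher at 6 h in 7 of 28 cases and lower in 0. Genes of the cholesterol list were higher in 8 of 20 and lower in 0. With any 1 array left out, 4 or 5 immediate early genes and 5 genes of the cholesterol list were higher. Genes of amino acid stress were higher in 2 and lower in 8 of 29 cases, or in 2 and 1 with median-centred arrays, and lower in 1 or 3 with any 1 array left out.

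RGS1 had the highest fitted rise between the times at the floor used, with 496 and 975 at 6 h and 62.8 and 72.1 at 2 h, 10.3-fold (3.37 ± 0.50, adjusted p = 0.00538). Both FOSB and EGR1 were higher at 6 h: FOSB gave 631 and 628 at 6 h against 93.8 and 77.2 at 2 h (2.89 ± 0.35), and EGR1 1038 and 878 against 153 and 136 (2.72 ± 0.31). CXCL8 gave 1013 and 952 at 6 h and 247 and 262 at 2 h (1.95 ± 0.14), MMP1 888 and 956 against 231 and 299 (1.81 ± 0.28) and CDKN1A 1089.6 and 1132 against 323 and 461 (1.52 ± 0.27). Apart from RGS1, these genes were also called higher at 2 h than in control. PPP1R15A, which ends the stress-induced block of translation, gave 2204 and 2185 at 6 h and 647 and 781 at 2 h (1.63 ± 0.12), where it was not called against control (log2 0.14, adjusted p = 0.525). MEF2D, a transcription factor, gave 306 and 303 at 6 h and 38.7 and 79.9 at 2 h (2.45 ± 0.52).

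Some genes were lower at 2 h than in control. HMGCS1 gave 602 and 592 in control, 270.0 and 231 at 2 h and 1347 and 1350.0 at 6 h, so it lay below control at 2 h (log2 -1.26, adjusted p = 0.00235) and above it at 6 h, with a difference between the times of 2.43 ± 0.21 (adjusted p = 2.38e-04). IRF1, an interferon-regulated factor, gave 826 and 815 in control, 410.3 and 354 at 2 h and 728 and 797 at 6 h (6 h minus 2 h 1.0 ± 0.16). BCL2A1 gave 2389.7 and 2669 in control, 1421 and 1264 at 2 h and 2898 and 3161 at 6 h (1.18 ± 0.11). For IRF1 and BCL2A1 the 2 h level was below control (adjusted p = 9.09e-04 and 3.55e-04), while the 6 h level was not called against it. HK3, a hexokinase, gave 366 and 198 in control, 22.6 and 30.5 at 2 h, under the floor on both arrays, and 134 and 210.0 at 6 h, at least 4.48-fold higher than at 2 h. BHLHE40, a repressor of the circadian system, gave 1265 and 1321 in control, 877 and 803 at 2 h and 1358 and 1338 at 6 h (0.68 ± 0.10); its 2 h level was below control (log2 -0.62, adjusted p = 0.00213).

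Others were lower at 6 h than at 2 h. CEBPA gave 451 and 637 at 6 h and 1588 and 1310.1 at 2 h (-1.43 ± 0.19, adjusted p = 0.00299), and HSP90AA1 1787 and 1972 against 2934 and 3069.7 (-0.68 ± 0.09). CX3CR1, the fractalkine receptor, gave 302 and 242 at 6 h and 642 and 545 at 2 h (-1.13 ± 0.25), both above the 98.1 and 100 of control. PSAT1, of serine synthesis, gave 750.5 and 805 against 1666 and 1533 (-1.04 ± 0.15), and SLC7A11 540.0 and 498 against 785 and 831 (-0.64 ± 0.14). XBP1 gave 969 and 1167 against 1697 and 1724 (-0.69 ± 0.14) and the replication primase PRIM1 591 and 625 against 1067 and 1148 (-0.86 ± 0.11). The methyltransferase KMT5A was lower by 2.78-fold.

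**Figure D5:**
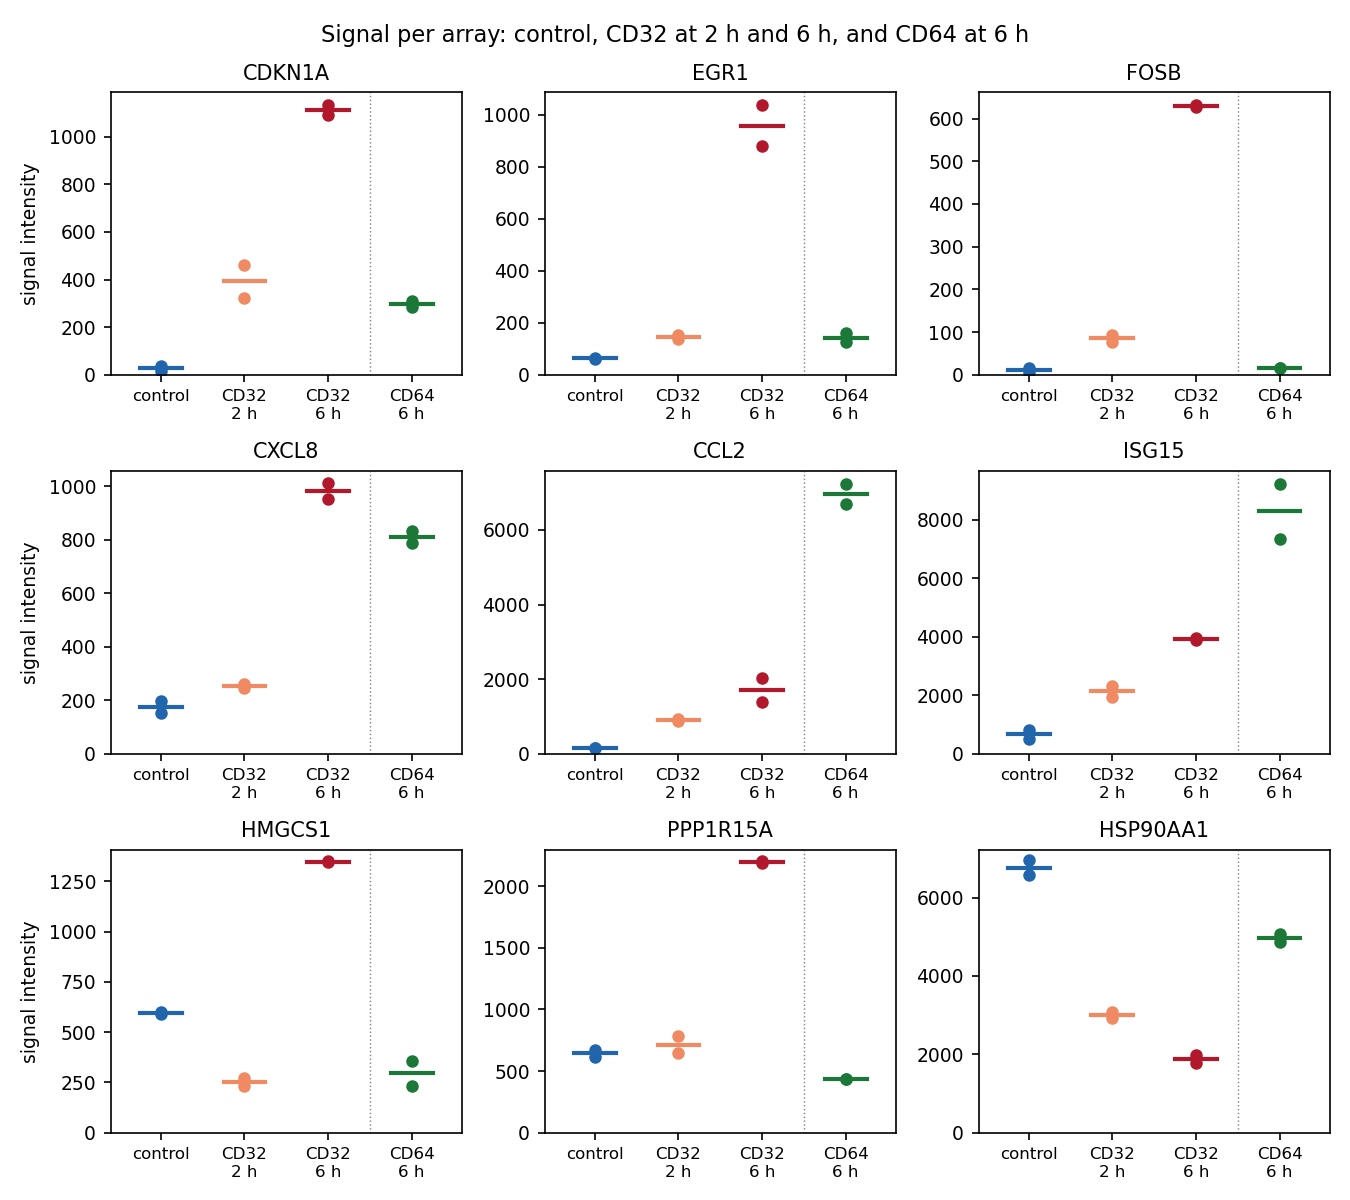
Signal intensity (linear axis from 0) of 9 genes, with 1 point per array and a bar at each mean of 2 arrays: control, CD32 2 h and CD32 6 h, and, right of the dotted line, CD64 6 h. FOSB, EGR1 and PPP1R15A are highest on the CD32 6 h arrays, CCL2 and ISG15 are higher after CD64, HMGCS1 is lower at 2 h than in control and higher at 6 h, and HSP90AA1 is lowest on the CD32 6 h arrays.

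CD32 and CD64 were compared at 6 h. Limma called 1357 of 7708 probe sets, or 17.6%: 601 higher after CD32 (7.80%) and 756 lower (9.81%), or 749 without CD32 6 h replicate 1, 646 and 705 without CD64 6 h replicate 1 or 2, and 508 in the fit of these 4 arrays. By gene 516 were higher (7.57%) and 660 lower (9.69%). The arrays differed in control probe sets here too: the bacterial mean log2 signal was 12.63 and 12.59 on the CD32 6 h arrays and 9.63 and 9.58 on the CD64 6 h arrays, the actin ratio 2.01 and 1.97 against 1.16 and 1.08, and the highest signal 36977.6 and 37995 against 14536 and 15868. Their part in the differences was not tested.

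Immediate early factors were higher after CD32 in 13 of 28 genes and lower in 1, or higher in 7 to 9 with any 1 array left out. FOSB gave 631 and 628 after CD32 6 h and 15.9 and 16.8 after CD64 6 h, at least 16.8-fold higher (4.07 ± 0.35, adjusted p = 4.67e-05). EGR1 gave 1038 and 878 after CD32 and 127 and 159 after CD64 (2.75 ± 0.31), and RGS1 496 and 975 against 138 and 94.0 (2.61 ± 0.50). Both CD64 arrays lay under the floor for FOSB. CDKN1A gave 1089.6 and 1132 after CD32 and 284 and 309 after CD64 (1.91 ± 0.27), and PPP1R15A 2204 and 2185 against 437 and 432 (2.34 ± 0.12). MEF2D and FKBP8, a chaperone-like immunophilin, were at least 8.12-fold and 7.01-fold higher after CD32, since the CD64 arrays lay under the floor.

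Interferon-stimulated genes, by contrast, were lower after CD32 in 14 of 42 cases and higher in 3, with a median of -0.50; 7 to 10 were lower with any 1 array left out and 9 with median-centred arrays. IFIT1, which binds viral RNA, gave 459 and 546 after CD32 6 h and 4416 and 3934 after CD64 6 h, 8.33-fold lower (-3.06 ± 0.19, adjusted p = 5.47e-06). RIGI, the cytosolic RNA sensor, gave 238 and 197 against 1143 and 1046 (-2.33 ± 0.37), IFIT5 109.7 and 115 against 396 and 683 (-2.21 ± 0.43) and ISG15 3889 and 3975 against 7342 and 9241 (-1.07 ± 0.19). CCL2 gave 2040.0 and 1387 after CD32 and 6684 and 7226 after CD64, 4.13-fold lower (-2.05 ± 0.15), whereas CXCL8 gave 1013 and 952 against 833 and 786 and was not called (0.28 ± 0.14, adjusted p = 0.243). CXCL9, a chemokine induced by interferon gamma, gave 9008 and 7917 after CD32 and 4753 and 4912 after CD64 (0.81 ± 0.09). IRF1 gave 728 and 797 against 339 and 341 (1.16 ± 0.16), so not all interferon-related genes were lower.

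The cholesterol list, with its fatty acid genes, was higher after CD32 than after CD64 in 12 of 20 genes and lower in 0. Its median was 0.99, and 10 to 13 were called under each alternative. HMGCS1 gave 1347 and 1350.0 after CD32 6 h and 359 and 233 after CD64 6 h (2.22 ± 0.21), and FASN 1003 and 1332 against 177 and 218 (2.56 ± 0.20, adjusted p = 2.61e-05). Of 27 genes of glycolysis 12 were higher and 1 lower, or 8 higher without CD32 6 h replicate 1: PKM gave 15584 and 13519 after CD32 and 2379.8 and 2657 after CD64 (2.53 ± 0.13). Ribosomal proteins were higher in 37 of 48 cases as deposited and lower in 2, but under quantile normalization 2 were higher and 8 lower, so their direction depends on the scaling. CD4 gave 2474 and 2396 against 552 and 571 (2.12 ± 0.13), CD74 4449.8 and 4031 against 1129 and 1243 (1.84 ± 0.12) and SPI1 579.6 and 589 against 109.6 and 111 (2.40 ± 0.31). PTPN6 (SHP-1), an inhibitory phosphatase, gave 2326 and 2174 after CD32 and 986 and 901 after CD64 (1.25 ± 0.09). Lower after CD32 were HMOX1, which degrades haem, with 214 and 234 against 476 and 624 (-1.28 ± 0.22), the cyclin CCNE2, with 183 and 237 against 830.0 and 713 (-1.89 ± 0.23), and the caspase CASP6, with 103 and 72.5 against 436 and 400.4 (-2.28 ± 0.32). PTX3, a soluble pattern receptor, gave 217 and 242 after CD32 and 848 and 781 after CD64 (-1.83 ± 0.19).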

How the data were processed

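RNA of U937 cells was measured on 10 single-colour oligonucleotide arrays, 2 in each of 5 groups. The deposited table holds 1 linear signal intensity per probe set and array; trimmed means without the lowest and highest 2% were alike across arrays, so the authors had scaled it, and the software and settings are not given in the sources used here. A wrong scale factor would shift all genes of an array together, whereas a difference that depends on brightness would not. Other scalings were therefore tried, of which quantile normalization and cyclic loess act by brightness. Genes were named through the probe annotation supplied: 7840 of 8746 probe sets had 1 symbol, 388 several and 518 none, and only the first kind is named.

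Signals under the 25th percentile of all values were set to that floor (37.5), and log2 values were taken. The fit took probe sets that exceeded it on 2 arrays or more, and was made with limma 3.58.1 in R 4.3.3 on all 10 arrays, with 1 term per group and a variance trend. P-values were adjusted by Benjamini and Hochberg over 7708 probe sets, and a call is an adjusted p under 0.05. The fit had 5 residual degrees of freedom. A gene with several probe sets was represented by the brightest. A fold is written as a bound where the lower group's mean did not exceed the floor. The ± after a log2 difference is its standard error. No depth applies to arrays; their number limits the precision.

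Genes were named by a rule: the 12 largest rises and falls, up to 3 called members with the largest rise and fall per list, the brightest member not called, every Fc receptor gene, and in the other comparisons the 6 extremes and 1 gene per list and direction. Members and lists were chosen with earlier results of these data known. Genes on chromosome Y were left out, and a few items are not reported here. Alternatives covered the scaling, the floor, the filter, the arrays in the fit, the variance trend, a replicate block and each array left out. The replicate block was not used for calls, since the labels do not say that equal numbers pair arrays. Deviations from the group means correlated at 0.0265 between the CD32 6 h and control arrays, and at -0.1406 to 0.2848 over all pairs of groups. Among control, CD64 2 h and CD64 6 h they correlated at 0.2045 to 0.2848, so a shared replicate effect in these groups is not excluded.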

Additional observations from a re-analysis of the deposited data

Results flagged for a closer look

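Several genes were called against control in opposite directions after CD32 and after CD64 at 6 h, and the difference between the receptors was itself called. FASN had a log2 difference from control of 1.14 after CD32 6 h and -1.42 after CD64 6 h, so CD32 minus CD64 was 2.56. HMGCS1 stood at 1.18 after CD32 6 h, against -1.05 after CD64 6 h, a difference of 2.22. PKM stood at 1.5 after CD32 6 h, against -1.03 after CD64 6 h, a difference of 2.53. SPI1 stood at 1.17 and CD4 at 1.26 after CD32 6 h, against -1.23 and -0.86 after CD64 6 h, differences of 2.40 and 2.12. CD74 stood at 1.36 and B2M at 0.52 after CD32 6 h, against -0.48 and -0.76 after CD64 6 h, differences of 1.84 and 1.28. The highest signal of any probe set on the CD64 6 h arrays was 14536 and 15868, below the B2M signal of both control arrays. The part of this limit in the B2M difference was not tested. ITGAE ran the other way, with -0.59 after CD32 6 h and 0.45 after CD64 6 h, a difference of -1.04. The ribosomal genes RPS18, RPL9 and RPL30 stood at 0.54, 0.53 and 0.50 after CD32 6 h, against -0.83, -0.73 and -0.78 after CD64 6 h, differences of 1.37, 1.26 and 1.28; the direction of their list depends on the scaling.

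HMGCS1 also moved in opposite directions at the 2 times of CD32, and the difference was called. Its log2 difference from control was -1.26 at 2 h and 1.18 at 6 h, so 6 h minus 2 h was 2.43.

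Control probe sets that no comparison used differed between the groups too. The mean log2 signal of the 9 bacterial probe sets was 1.73 higher on the CD32 6 h arrays than on the control arrays. Its part in the gene results was not tested.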

How the results depend on the processing

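Of 197 named genes called against control 77 kept their call and direction under every alternative run, of 83 called against CD64 6 h 38 did, and of 51 called against CD32 2 h 0 did, by limma in each case; no called gene changed direction under any of them. Fitting only the 4 arrays compared gave 385 calls against control, 0 against CD32 2 h (1410 at an unadjusted p under 0.05) and 508 against CD64 6 h, with fewer arrays to estimate the spread. With any 1 array left out the calls ran from 942 to 1316 against control, from 40 to 130 against CD32 2 h and from 646 to 946 against CD64 6 h. Median-centred arrays gave 103 calls against CD32 2 h and 890 against CD64 6 h, 66.4% of the last higher after CD32, against 44.3% as deposited; no variance trend gave 54 against CD32 2 h; the cause was not tested. The fit with a replicate block gave 1600, 365 and 1386 calls in the same order of comparisons, and 2 of the 197 genes and 1 of the 51 lost their call in it. Genes not called against control changed sign as follows. Under quantile normalization H2AZ1 stood at -0.03, HBB at 0.07, HSPD1 at -0.11, NDRG1 at -0.02 and NPM1 at -0.10. Under cyclic loess they stood at -0.04, 0.12, -0.11, -0.02 and -0.09. With median-centred arrays HBB stood at 0.07, NKG7 at 0.00 and TPX2 at 0.01. With 1 array of the comparison left out the values ran from -0.34 to 0.43 for CD5, from -0.61 to 0.98 for CD79A, from -0.01 to 0.14 for FCGR2A, from -0.20 to 1.73 for FCGR3B, from -0.04 to 0.13 for H2AZ1, from -0.17 to 0.06 for HBB, from -0.03 to 0.04 for HSPD1, from -0.03 to 0.10 for NDRG1 and from -0.08 to 0.15 for NPM1. Lists with 1 to 3 calls gained or lost 1 in several of these fits. Signal near the floor of 37.5, at or under which 23.9% and 26.0% of values lay on the CD32 6 h arrays and 20.2% and 27.5% on the control arrays, limits the size of any fold there.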
